A study of Sus scrofa with 57 samples.

Results

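The genes GMDS, TRAPPC9, VAV2, ARHGAP26, TBC1D22A, TBCD, DBNDD1, PARK2, INPP5A and VPS13D carried the most captured methylated regions over their loci in adipocytes of lean and obese pigs. These 10 genes were chosen by a measured value, the number of regions of the deposited mDNAcap comparison that overlapped the locus, among 25285 gene identifiers with a locus, and INPP5A and VPS13D, the last of them, tied with 2 genes left out. mDNAcap is the capture of methylated DNA fragments followed by sequencing, and each region is a stretch in which the authors' comparison of obese with lean libraries passed its cutoff. A region is called hyper-methylated here where the mean normalized count was higher in the obese libraries and hypo-methylated where it was lower. The numbers of regions, their directions and their group means belong to the contrast that chose the genes. So do the sums over a locus and how far they separate the libraries. All of these are given as a description with no test. RNAseq took no part in the rule that chose the genes and was tested, though earlier results of these data were known at the choice.

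The samples were mature adipocytes, isolated by collagenase treatment from the retroperitoneal fat of lean and obese pigs of an intercross between Duroc and Göttingen minipigs, whose ages the labels do not give. RNAseq covered 5 lean and 5 obese males in 11 libraries, since obese pig-572 had 2, the second labelled pig-572(B) and numbered differently in its description. Their mean was used. mDNAcap and RRBS (reduced representation bisulfite sequencing, which reads methylation at single CpGs) covered 13 samples labelled obese, of 8 males and 5 females, and 10 labelled lean, of 8 males and 2 females. The deposited mDNAcap comparison set 11 obese libraries (7 males and 4 females by the labels) against 11 lean ones (8 males and 3 females). Pig-411, labelled obese, stood on the lean side of that comparison, and pig-584, labelled obese, was not in it. The paper counts 11 lean pigs where the labels give 10. It describes 8 males and 4 females per group, less 1 lean female, which are the sex counts of the lean side with pig-411 in it. The label of pig-411 is therefore in doubt, and the paper's counts go with its place on the lean side. The values of single libraries carry no pig number and were not assigned to pigs, so no result is given without pig-411, within a sex or within the 2 sequencing directories that the file header names, each of which held 5 or 6 libraries of either group. Depth differed widely among the captured libraries: the mean read count per 1000-base bin ran from 0.440 to 4.10 in the obese and from 0.630 to 7.04 in the lean libraries, and each count was divided by the authors by 1 constant per library.

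The labelled cell type was checked against marker genes in the RNAseq tables. FPKM, fragments scaled to the length of the transcript and the mapped fragments of the library, were divided by size factors that make the libraries comparable. Of 10 adipocyte markers listed, 5 were matched by name, and PLIN1, a protein of the lipid droplet surface, was the most abundant at a mean FPKM of 312. The 9 matched macrophage and leukocyte markers summed to an FPKM of 4.61 ± 1.22 (SD, n = 5) in the lean and 4.33 ± 1.03 in the obese pigs, with CD14 the most abundant at 1.87. CD163 was listed at 0 in every library, as was BTF3, and such a 0 is not read as low expression. The names of the other 5 adipocyte markers, ADIPOQ, FABP4, CIDEC, PNPLA2 and LPL, were not in the tables. Adipocyte markers that could be matched were thus abundant and immune markers low, while collagen RNA was abundant too (COL3A1, mean FPKM 394).

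The genes have different roles. TRAPPC9 is a subunit of the TRAPP complexes that act on Rab GTPases in vesicle traffic, TBC1D22A belongs to the TBC domain proteins that act on Rab GTPases, and VPS13D moves lipids between membranes. GMDS starts the synthesis of GDP-fucose, the donor for fucose on glycoproteins, and INPP5A removes a phosphate from inositol trisphosphate, which releases calcium. TBCD is a cofactor for folding tubulin, PARK2 is the ubiquitin ligase parkin, which marks damaged mitochondria for removal, and DBNDD1 carries a dysbindin domain. Methylation of CpGs at promoters often goes with low transcription, while gene bodies are commonly methylated in expressed genes.

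Across the 10 loci, 105 captured regions were found, of which 68 were hyper-methylated and 37 hypo-methylated. Hyper-methylated regions made up 64.8% of these regions, against 29.3% of all 7401 deposited regions (70.7% were hypo-methylated), 40.2% of the 3025 in other gene loci and 20.7% of the 4271 outside gene loci. The loci fell into 3 patterns: regions almost all hyper-methylated over TBCD (10 of 10), INPP5A (8 of 8), VAV2 (11 of 12), TBC1D22A (10 of 11) and GMDS (13 of 15), almost all hypo-methylated over PARK2 (9 of 9), ARHGAP26 (10 of 11) and VPS13D (7 of 8), and mixed over DBNDD1 (5 hyper- and 4 hypo-methylated, 2 of the latter turning under another scaling) and TRAPPC9 (9 hyper- and 3 hypo-methylated, but 4 and 3 within its longest entry). Of all gene loci, 8.73% carried at least 1 region. With loci of 2940 kb in all, the density was 3.57 regions per 100 kb, against 0.459 over the union of all gene loci. Among the 1192 loci at least as long as that of TBCD, the shortest of the 10, 31.1% carried a region and the 95th percentile was 1.702 regions per 100 kb.

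The difference between groups was modest in each single region. In none of the 105 regions did the 11 obese and 11 lean libraries separate without overlap, as they did in 0.149% of all deposited regions. In 59 regions the difference of the means was at least as large as the larger SD, and in 46 it was smaller. The median region had a mean normalized count of 26.4 per library, against 15.5 over all deposited regions. Direction went with the count: among regions with a mean of at least 20, 64.8% of all deposited regions were hyper-methylated and 83.1% of the 71 in the 10 loci. Of the 1113 such regions in other gene loci 77.99% were hyper-methylated, so that at such counts the 10 loci were close to other gene loci. Under the authors' normalization the size of the difference went the other way. Of the 35 regions in the 10 loci with group means at least 1.5-fold apart, 11 were hyper- and 24 hypo-methylated. Thus 31.4% were hyper-methylated, against 18.995% of such regions in other gene loci and 13.2% of all such regions. Scaling by the median of ratios over the deposited regions moved the median log2 ratio of all regions up by 0.31. These regions were selected for a difference and 70.7% of them were hypo-methylated, so an upward shift follows in part from the set used. Scaling by the mean read count per bin moved this median up by 0.28. Ratios below use the authors' normalization and are relative to that choice. Under the median of ratios the median log2 ratio of the 105 regions was 0.79 in place of 0.45, and 103 of them kept their direction, the other 2 being hypo-methylated regions over DBNDD1. Among hypo-methylated regions only the second of PARK2 (log2 ratio -0.72) stayed at least 1.5-fold apart under the median of ratios. All hyper-methylated regions outside DBNDD1 were that far apart, so the split by size turned with the scaling.

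**Figure D1:**
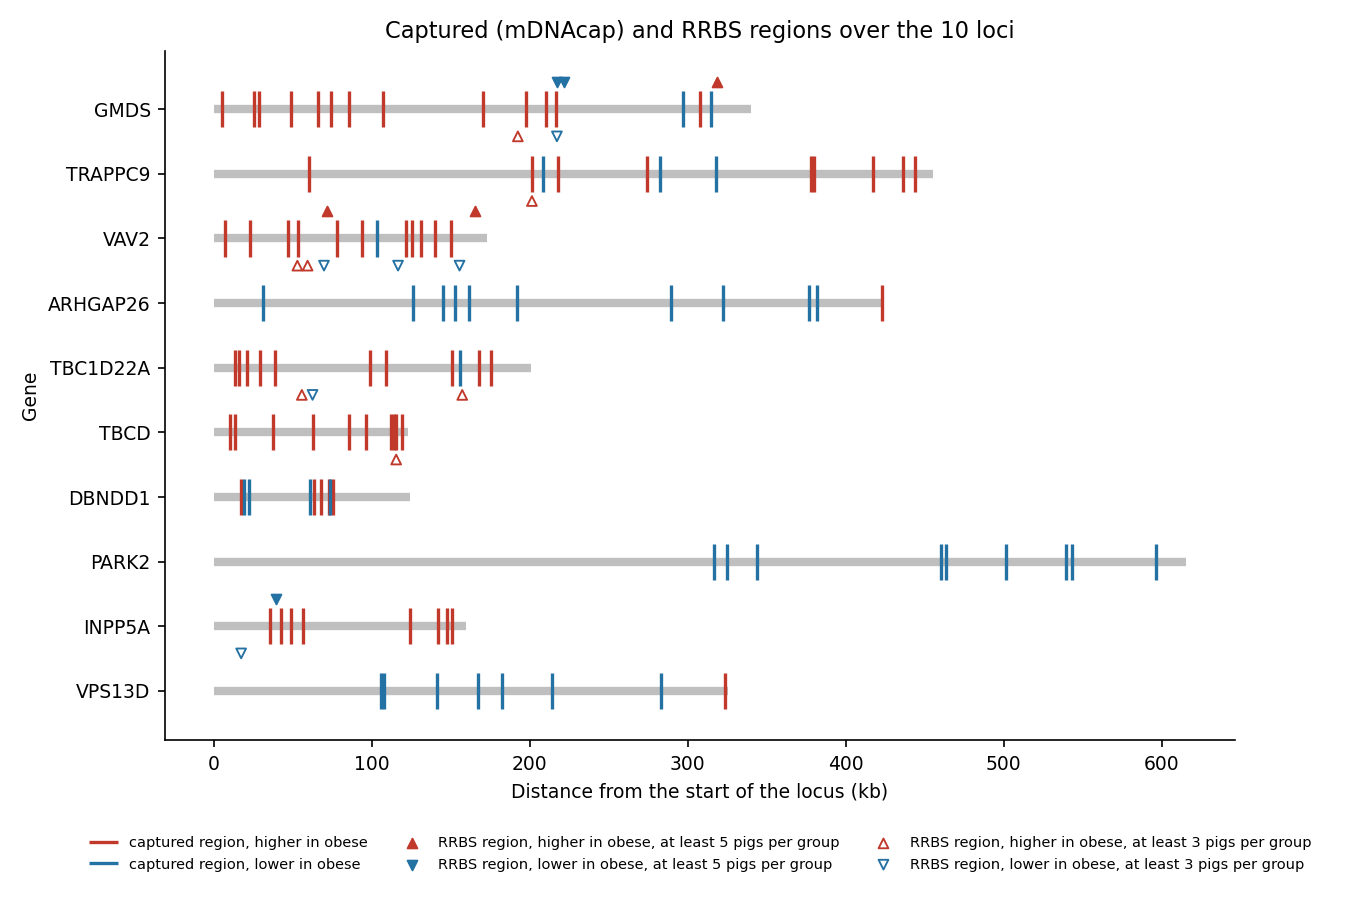
Position of each captured region (vertical ticks) and RRBS region (triangles, filled for the table with at least 5 pigs per group and open for the table with at least 3) along the 10 loci, as distance from the locus start in kb (grey bars are the loci to scale), with red for a higher and blue for a lower mean in obese pigs. TBCD and INPP5A show only red ticks and PARK2 only blue ones, and DBNDD1 a mix of both.

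VAV2 and ARHGAP26 showed opposite patterns. The VAV2 locus (build Sscrofa10.2, chromosome 1, 307276016 to 307449234) carried 12 regions in 173 kb, or 6.93 per 100 kb, spaced at a median of 8.80 kb from 6.08 to 151 kb after the locus start. The order along the locus was 6 hyper-methylated regions, 1 hypo-methylated and 5 hyper-methylated. The region with the highest count (chromosome 1, 307298201 to 307300100) had a mean normalized count of 68.3 ± 15.02 (SD, n = 11) in obese and 50.6 ± 13.6 (SD, n = 11) in lean libraries. Single obese libraries there ran from 51.3 to 96.2 with a median of 63.3, and lean ones from 36.5 to 82.7 with a median of 43.9. Every obese library was above the lean median, but the groups overlapped. The last region (chromosome 1, 307425201 to 307426700) held the largest ratio, 29.2 ± 8.75 against 18.9 ± 5.13 (log2 ratio 0.62). The hypo-methylated exception (chromosome 1, 307379101 to 307380100) had 16.02 ± 4.86 in obese and 23.8 ± 4.25 in lean libraries, and none of the 11 obese libraries was above the lean median. Summed over its regions, VAV2 gave 265 to 469 (median 349) in obese and 235 to 291 (median 260.4) in lean libraries, with 9 obese libraries above the highest lean one. The obese libraries were spread more widely, with an SD of 70.97 against 16.5.

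ARHGAP26 (chromosome 2, 150495712 to 150918983) carried 11 regions in 423 kb, 2.599 per 100 kb, and the first 10 of them were all hypo-methylated. The largest ratio was in the third region (chromosome 2, 150640001 to 150641100), with a mean normalized count of 7.56 ± 3.02 in obese and 13.5 ± 3.88 in lean libraries (log2 ratio -0.84). The highest counts among the hypo-methylated regions were in the fourth (chromosome 2, 150647601 to 150648800), where obese libraries ran from 14.7 to 30.8 with a median of 20.1 and lean ones from 21.1 to 41.6 with a median of 34.3. In both regions all 11 obese libraries were at or below the lean median. The last region (chromosome 2, 150918201 to 150919200) was hyper-methylated, at 24.6 ± 8.31 against 16.7 ± 4.76, and reached past the end of the locus. The sums over the locus were 127 to 193 (median 156) in obese and 192 to 254 (median 224) in lean libraries, so that 10 obese libraries were below the lowest lean one.

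Of the genes of vesicle traffic and membrane contact, TBC1D22A carried mostly hyper-methylated regions, VPS13D mostly hypo-methylated ones and TRAPPC9 both. The TRAPPC9 identifier has 3 entries in the RNAseq tables, of 348565, 1681 and 79 bases, and its locus was taken from the first to the last base of them (chromosome 4, 2565801 to 3021011). This locus held 12 regions, 2.64 per 100 kb, but its longest entry alone held 7, of which 4 were hyper- and 3 hypo-methylated, and with 7 the gene would not have been among the 10. The other 5, the last of the locus, lay between the entries and in none of them. They were hyper-methylated without a break, among them a pair 0.1 kb apart with the highest counts: 43.3 ± 14.1 in obese and 31.9 ± 4.198 in lean libraries for the second of the pair (chromosome 4, 2944701 to 2946400). The 3 hypo-methylated regions lay in the middle of the locus, interleaved with hyper-methylated ones. The strongest of them (chromosome 4, 2882901 to 2883900) had 8.72 ± 3.94 in obese and 14.7 ± 3.32 in lean libraries (log2 ratio -0.75), with no obese library above the lean median. Neighbours could differ in direction: next to one hypo-methylated region (chromosome 4, 2773401 to 2774400, log2 ratio -0.56) lay a hyper-methylated one (chromosome 4, 2766801 to 2768100, log2 ratio 0.61). The sums over the locus were 244 to 369 (median 318) in obese and 219.7 to 299.7 (median 255) in lean libraries.

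TBC1D22A (chromosome 5, 111953 to 312730) carried 11 regions in 201 kb, 5.48 per 100 kb. The first 8 were hyper-methylated, and 5 of them lay close together near the locus start. The highest count was in the tenth region (chromosome 5, 278901 to 281100), with 67.2 ± 20.7 in obese and 50.7 ± 11.8 in lean libraries, and the largest ratio in the sixth (chromosome 5, 210501 to 211500), with 19.02 ± 5.68 against 12.3 ± 3.05 (log2 ratio 0.63). The seventh region (chromosome 5, 220501 to 221600) was the only one in which every obese library was above the lean median, from 26.3 to 46.4 with a median of 35.8 in obese and from 16.1 to 39.5 with a median of 25.8 in lean libraries. The sums over the locus were 305 to 545 (median 415) in obese and 238 to 390.5 (median 327) in lean libraries, and 8 obese libraries were above every lean one.

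VPS13D (chromosome 6, 66313401 to 66638980), the only one of the 10 loci far inside its chromosome, carried 8 regions in 326 kb, 2.46 per 100 kb. None lay in the first 105 kb, and the first 7 were hypo-methylated. The largest ratio was in the seventh region (chromosome 6, 66595701 to 66596700), with 6.69 ± 3.602 in obese and 12.1 ± 4.05 in lean libraries (log2 ratio -0.85). In the third region (chromosome 6, 66453301 to 66455500) the obese libraries ran from 15.6 to 31.3 with a median of 22.5 and the lean ones from 24.8 to 49.5 with a median of 34.8. There, as in the fourth and the fifth region, no obese library was above the lean median. The last region (chromosome 6, 66636601 to 66637600) was hyper-methylated, at 33.7 ± 10.4 against 24.6 ± 6.76. As over ARHGAP26, the single hyper-methylated region was the last of the locus, and 10 obese libraries had a sum below that of the lowest lean library. The sums were 98.8 to 172 (median 132) in obese and 154 to 226 (median 171) in lean libraries.

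GMDS and INPP5A, the enzymes of sugar nucleotide and inositol phosphate metabolism, carried mostly hyper-methylated regions. GMDS (chromosome 7, 1046663 to 1386578) held the most regions of any gene, 15 in 339.9 kb or 4.41 per 100 kb. The first 12 were hyper-methylated without a break, and the 3 that followed after a gap of 79.0 kb were hypo-, hyper- and hypo-methylated. The largest ratio was in the ninth region (chromosome 7, 1216301 to 1217300), with 15.9 ± 3.73 in obese and 9.46 ± 3.75 in lean libraries (log2 ratio 0.75). The seventh (chromosome 7, 1131601 to 1133100) had the highest counts, from 33.1 to 61.02 with a median of 49.3 in obese and from 28.2 to 52.7 with a median of 36.4 in lean libraries. The hypo-methylated regions near the end (chromosome 7, 1343001 to 1344700, and chromosome 7, 1360501 to 1361700) had 22.7 ± 4.65 against 32.2 ± 8.81 and 16.4 ± 6.05 against 23.3 ± 5.92. Summed over all its regions, GMDS gave 408 to 572.1 (median 465) in obese and 346 to 409.8 (median 366) in lean libraries. Thus 10 obese libraries were above every lean one, over regions that were selected for a difference between these groups.

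INPP5A (chromosome 14, 152709505 to 152869113) carried 8 regions in 159.6 kb, 5.01 per 100 kb, in 2 groups of 4 that were 66.0 kb apart. All were hyper-methylated. The third (chromosome 14, 152757901 to 152759000) held the largest ratio, with 14.9 ± 3.78 in obese and 8.295 ± 4.21 in lean libraries (log2 ratio 0.85), and 1 lean library had no read there. The fifth (chromosome 14, 152832701 to 152834200) ran from 37.8 to 83.1 with a median of 49.1 in obese and from 29.96 to 47.4 with a median of 36.4 in lean libraries. In 4 of the 8 regions every obese library was above the lean median. The sums over the locus were 222 to 394 (median 294) in obese and 158 to 253 (median 222) in lean libraries.

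TBCD (chromosome 12, 287866 to 410910) had the highest density, 10 regions in 123 kb or 8.13 per 100 kb, all hyper-methylated, with log2 ratios from 0.44 to 0.60. The last 4 lay close together at the end of the locus. The highest counts were in the tenth region (chromosome 12, 405901 to 408000), which ran from 42.9 to 90.1 with a median of 63.5 in obese and from 32.4 to 68.6 with a median of 42.1 in lean libraries, and every obese library there was above the lean median. The seventh (chromosome 12, 399501 to 400500) held the largest ratio, with 20.4 ± 7.25 in obese and 13.4 ± 4.500 in lean libraries. The sums over the locus were 275 to 543 (median 422) in obese and 244 to 367 (median 285) in lean libraries, and 8 obese libraries were above every lean one.

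PARK2 (chromosome 1, 7197035 to 7812493), the longest locus at 615 kb, carried 9 regions, 1.46 per 100 kb, and all were hypo-methylated. They lay only in the part beyond 316 kb from the locus start. The second region (chromosome 1, 7521501 to 7522500) had the lowest ratio of the 105 regions, with 5.69 ± 3.46 in obese and 11.5 ± 3.53 in lean libraries (log2 ratio -1.02), the obese libraries running from 0.00 to 10.96 with a median of 6.48 and the lean ones from 6.59 to 18.2 with a median of 12.1. The counts were the lowest of the 10 loci, with a median over its regions of 13.99 per library. None of the 9 regions reached a mean normalized count of 20. The first (chromosome 1, 7512601 to 7514400) had 12.1 ± 4.999 against 21.2 ± 5.43. The sums over the locus were 55.3 to 153 (median 82.2) in obese and 119 to 185 (median 149) in lean libraries, with 8 obese libraries below every lean one.

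DBNDD1 (chromosome 6, 98891 to 223165) stood apart from the other 9 loci. Its 9 regions (7.24 per 100 kb) overlapped each other in part and formed 6 separate stretches, all within 77.6 kb of the locus start. Their mean normalized counts ran from 138 to 2190, and only 126 of all 7401 regions reached the lowest of these. The seventh region (chromosome 6, 170501 to 172500) had 2294 ± 440.4 in obese and 2086 ± 228 in lean libraries, a log2 ratio of 0.14, and the difference was smaller than either SD. An overlapping region (chromosome 6, 171901 to 172900) had the opposite direction, with 118 ± 46.1 against 158 ± 54.96. The ninth (chromosome 6, 172701 to 176500) had the largest ratio (log2 0.97), but the obese SD, 423, was nearly as large as the obese mean, 454. Obese libraries there ran from 112 to 1365 with a median of 290.1 and lean ones from 113 to 393 with a median of 229. Scaling by the median of ratios turned the second and the third region from hypo- to hyper-methylated. It moved the log2 ratio of the fourth from -0.35 to -0.02 and that of the eighth from -0.43 to -0.07.

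**Figure D2:**
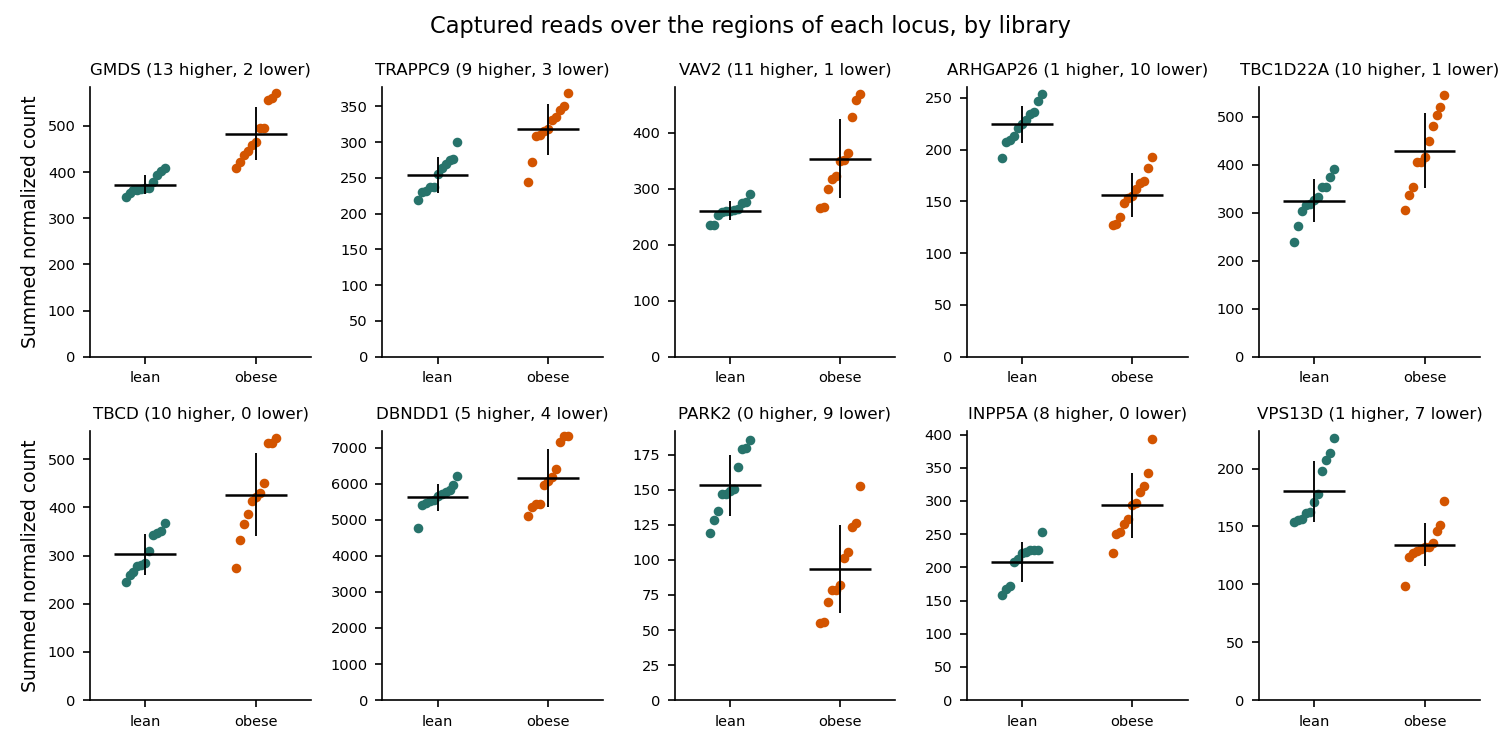
Normalized counts summed over the captured regions of each locus in the 11 lean and 11 obese libraries (points, sorted by value; line, mean; bar, SD), with the numbers of regions that were higher and lower in obese pigs above each panel. GMDS, ARHGAP26 and VPS13D each have 10 obese libraries beyond the range of the lean ones, and DBNDD1 has 4.

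**Figure D3:**
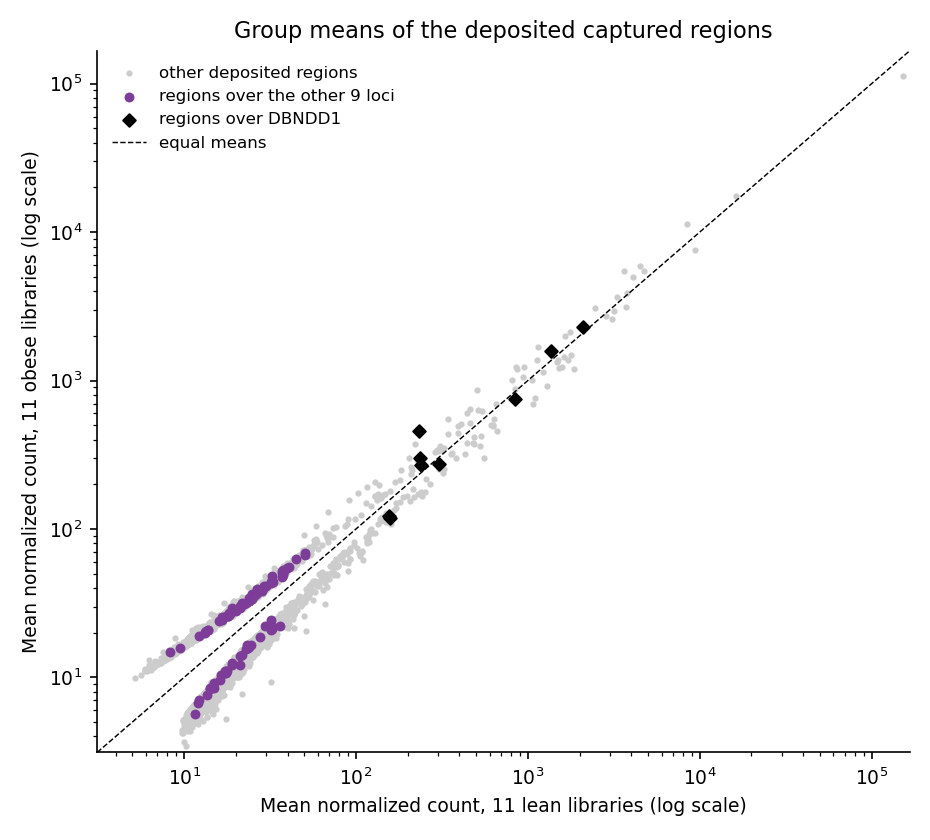
Mean normalized count of each deposited region in the 11 lean (x axis) and 11 obese libraries (y axis), both on log scales, with the regions of DBNDD1 as black diamonds, those of the other 9 loci in purple and all other regions in grey. Most of the purple points lie on the side of higher obese means, among grey points of the same counts, and most DBNDD1 points lie near the line of equal means at far higher counts.

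The runs of one direction continued past the edges of several loci. The 9 hypo-methylated regions of PARK2 belonged to a run of 44 neighbouring hypo-methylated regions over 5.03 Mb, with 25 regions before the locus and 10 after it. TBCD lay in a run of 16 hyper-methylated regions, the first 12 regions of GMDS in one of 15 and INPP5A in one of 14. The longest runs over all deposited regions were of 76 hypo- and 36 hyper-methylated regions, and the medians were 2 and 1. In stretches of the length of the locus on both sides, cut off at the chromosome end beside TBC1D22A and DBNDD1, regions were sparser per 100 kb than inside each locus. The loci were chosen for many regions, so sparser flanks follow in part from the choice. GMDS, for example, had 12 regions in its flanks (1.77 per 100 kb), 7 of them hypo-methylated, and INPP5A had 1 (0.313 per 100 kb). VAV2 had 10 flanking regions (2.89 per 100 kb), of which 9 were hyper-methylated like those inside it. The flanks of TBCD held 6 hyper- and 1 hypo-methylated region, and those of PARK2 held 6 regions, all hypo-methylated. The deposited table of hotspots holds clusters of the same regions by which the genes were chosen, so an overlap follows in part from the choice: 9 of the 10 overlapped at least 1 hotspot, as did 7.72% of the loci at least as long as that of TBCD. The largest over the 10, of 6 regions, was over DBNDD1.

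Several of the loci lay near chromosome ends, a position that the choice did not use directly. Taking the outermost gene locus or region as the end, 6 of the 10 (GMDS, TRAPPC9, TBC1D22A, TBCD, DBNDD1 and INPP5A) lay within 5 Mb of an end, with DBNDD1 only 0.0989 Mb and TBC1D22A 0.112 Mb away. Of the loci at least as long as that of TBCD, 6.36% lay there. VAV2 (7.85 Mb), PARK2 (7.197 Mb) and ARHGAP26 (11.6 Mb) were somewhat farther in. Of all deposited regions, 30.3% lay within 5 Mb of an end, and 51.5% of those were hyper-methylated against 19.9% elsewhere. Many regions and a larger share of hyper-methylated ones were thus found near chromosome ends over the genome as well. Of the long loci on assembled chromosomes, those within 5 Mb of an end carried 2.79 regions on average (75 loci), and those elsewhere 0.557 (1105 loci).

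The genes most like these 10, by the number of regions over the locus, were just outside the choice. RBP5, a retinol-binding protein gene, and the unnamed gene ENSSSCG00000024952 each carried 8 regions, as many as INPP5A and VPS13D. All 8 were hypo-methylated over RBP5 and all 8 hyper-methylated over the unnamed gene. The RBP5 locus, of 191 kb, spans 2 separate entries, the longer of only 1526 bases, so most of it lies between them. Which of its regions lie in an entry was not examined. The next 8 genes had 7 regions each: KIF1A and SDK1 with 7 hyper-methylated, PARN with 7 hypo-methylated, PARD3 with 6 hypo-methylated, TRPM2 with 6 hyper-methylated, TDRD9 with 5 hyper-methylated, SLC22A23 with 4 hyper-methylated and SHROOM2 with 5 hypo-methylated. Shorter loci among them were denser than any of the 10, with 17.2 regions per 100 kb over TRPM2 and 11.99 over KIF1A. Of these genes PARD3 and PARN alone passed the RNAseq filter, with 4.63 ± 1.61 FPKM (SD, n = 5) in the lean and 3.49 ± 0.381 in the obese pigs for PARD3 (limma adjusted p = 0.3699) and 6.21 ± 1.81 and 4.68 ± 0.605 for PARN (limma adjusted p = 0.285).

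Few other genes lay inside the 10 loci, so most regions could be given to 1 gene. BTF3 lay within ARHGAP26, ZNF750 within TBCD, PRDM7, GAS8 and ENSSSCG00000029761 within DBNDD1, and SNORA70 and ENSSSCG00000028578 within VPS13D. Of these 7 loci only that of ENSSSCG00000028578 held a region, the seventh of VPS13D. Its FPKM was 1.19 ± 0.3799 (SD, n = 5) in the lean and 1.74 ± 0.624 in the obese pigs (limma adjusted p = 0.318). Exons and introns were not assigned to the regions.

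RRBS gave a second measure of methylation in the same loci, as percent methylation averaged over the pigs of a group in regions of at least 10 CpGs. The table with at least 5 pigs per group held 6 regions in the 10 loci, 3 hyper- and 3 hypo-methylated, in GMDS (3), VAV2 (2) and INPP5A (1), and none in the other 7. Of all 610 regions there, 66.1% were hyper-methylated, and 3.02% of the loci at least as long as that of TBCD held a region. The table holds group means and no values of single pigs, so no error is given and no test was made here, and the authors' own p-values were not used. It gives no read depth, so the depth behind each mean is unknown, and it does not say on which side pig-411 stands.

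In GMDS the 3 RRBS regions of this table had the direction opposite to that of the nearest captured region. One RRBS region (chromosome 7, 1263852 to 1264126) overlapped the twelfth captured region, and its methylation was 33.8% in obese and 48.6% in lean pigs, while the captured count was 26.6 ± 6.61 in obese and 18.4 ± 6.53 in lean libraries. A neighbouring RRBS region (chromosome 7, 1268543 to 1268571) was also lower, at 83.5% in obese and 94.9% in lean pigs. The third (chromosome 7, 1365248 to 1365313) was higher, at 71.9% in obese and 59.6% in lean pigs, and its nearest captured region, 3.55 kb away, was hypo-methylated. In VAV2 both RRBS regions were hyper-methylated like the captured regions nearest to them, which were 5.77 and 14.7 kb away. One (chromosome 1, 307347944 to 307348029) had 26.3% in obese and 16.3% in lean pigs. The other (chromosome 1, 307441414 to 307441593) had 41.9% in obese and 26.9% in lean pigs. INPP5A had 1 RRBS region (chromosome 14, 152748579 to 152748823) with 12.8% in obese and 23.5% in lean pigs, which is lower, while the captured regions on both sides of it were hyper-methylated.

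The table with at least 3 pigs per group held mostly other regions, also in mixed directions. Only 1 of its regions in the loci, in GMDS, overlapped any of the 6 above. It held 13 regions in 6 of the loci, 7 hyper- and 6 hypo-methylated, against 61.1% hyper-methylated over all 2416 of its regions. Of the loci at least as long as that of TBCD, 10.23% held a region of this table. Of the 13 regions, 6 had the direction of the nearest captured region and 7 the opposite one, and 4 overlapped a captured region. In TRAPPC9 (chromosome 4, 2767173 to 2767284, 81.3% in obese and 70.9% in lean pigs), VAV2 (chromosome 1, 307328904 to 307329012, 82.3% in obese and 68.5% in lean pigs) and TBCD (chromosome 12, 403293 to 403391, 58.5% in obese and 46.7% in lean pigs) both measures were higher in obese pigs, and in GMDS they were opposite, at the same region as above. Another GMDS region of this table (chromosome 7, 1239129 to 1239370) was higher in obese pigs like its nearest captured region, with 71.3% in obese and 54.8% in lean pigs. The largest differences were both in VAV2: 68.95% in obese and 44.8% in lean pigs in one region (chromosome 1, 307335366 to 307335492) and 52.5% in obese and 78.8% in lean pigs in another (chromosome 1, 307431561 to 307431960). The second of these was opposite to its nearest captured region, 4.86 kb away. So were 2 more VAV2 regions, with 67.6% in obese and 80.7% in lean pigs (chromosome 1, 307345740 to 307345828) and 70.5% in obese and 85.9% in lean pigs (chromosome 1, 307392636 to 307392747). The INPP5A region (chromosome 14, 152726799 to 152727017) was opposite as well, with 62.9% in obese and 77.97% in lean pigs, but 17.4 kb from its nearest captured region. All of these opposite regions were lower in obese pigs, and their nearest captured regions were hyper-methylated. TBC1D22A held 3 regions. One (chromosome 5, 167655 to 167864) was higher like its nearest captured region, 16.0 kb away, with 67.7% in obese and 53.2% in lean pigs. The others were opposite to theirs. One of them (chromosome 5, 174432 to 174665), 22.7 kb from its nearest captured region, had 78.03% in obese and 89.2% in lean pigs. The other (chromosome 5, 269205 to 269459), 1.1 kb away, had 81.1% in obese and 68.00% in lean pigs. ARHGAP26, DBNDD1, PARK2 and VPS13D, which include all 3 mostly hypo-methylated loci, held no RRBS region in either table.

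**Figure D4:**
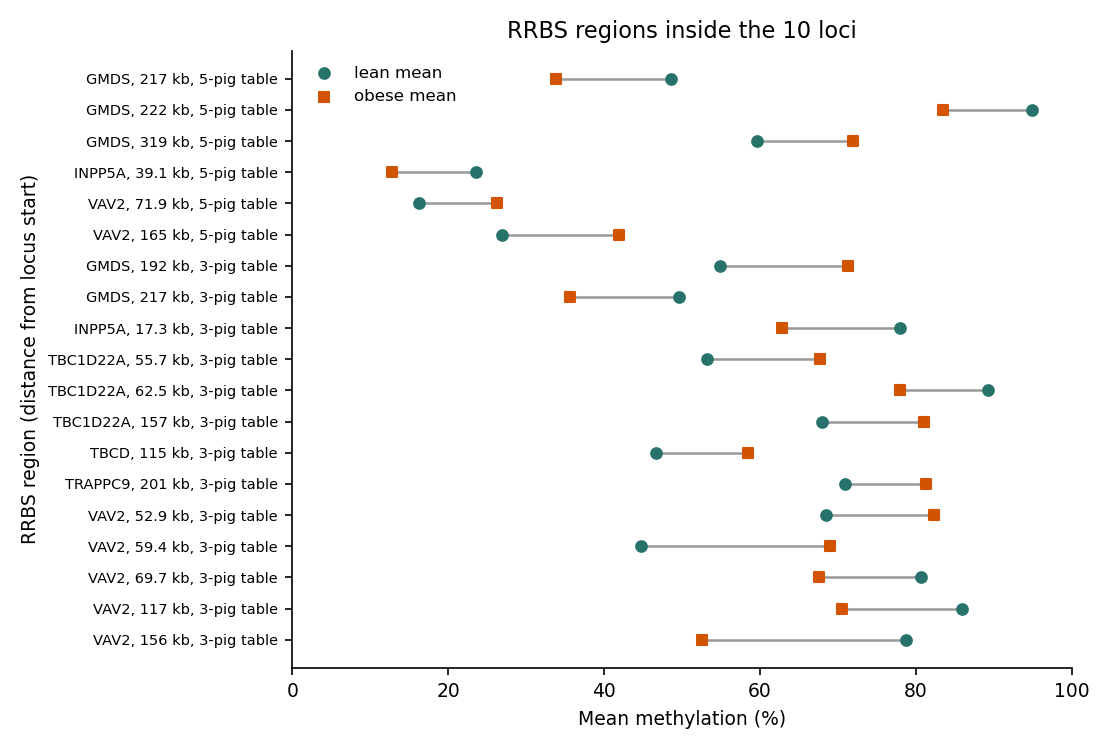
Mean methylation in percent of each RRBS region inside the 10 loci, for lean (green circles) and obese pigs (orange squares), with the gene, the distance from the locus start and the table it came from. Directions differ within GMDS, VAV2 and TBC1D22A.

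The RNA of 7 of the 10 genes was above the filter of a mean FPKM of 1, and none was called different between obese and lean pigs. In limma over all 10263 entries tested, 1 entry had an adjusted p under 0.05, C10ORF46, which is 0.00974% of them, and 2104 (20.5%) had an unadjusted p under 0.05. Of the 7 genes, TBCD and TRAPPC9 had an unadjusted p under 0.05, and nothing about the 10 is read from so small a count. Leaving out a single pig could end this for the longest TRAPPC9 entry (limma p = 0.0752 without lean pig-413). It could also bring it for INPP5A (limma p = 0.00602 without lean pig-402). The groups did not overlap for TBCD and for the second entry of TRAPPC9. Over all entries this was so for 4.14%, with every obese pig higher in 2.47% and every obese pig lower in 1.68%. On the log2 scale the longest entry of 6 genes had a higher and that of GMDS a lower mean in obese pigs, but TBC1D22A, 1 of the 6, differed by 0.00 and turned under other settings. The number of entries called over the whole table rested on single pigs: it was 148 without lean pig-402, 2 without lean pig-407, lean pig-577, obese pig-433 or obese pig-529, 16 with the library of pig-572(B) alone for pig-572, and 158 with both of that pig's libraries as separate replicates. No entry of the 10 genes was called in any of these. VAV2, ARHGAP26 and DBNDD1, at a mean FPKM of 0.1203, 0.0529 and 0.0316, were not tested, and fold changes below are on the scale of log2 of the FPKM plus 1, which understates those of low genes. In these bulk samples, fewer cells of a type and less RNA per cell cannot be told apart.

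TBCD had the smallest p of the 10 genes. Its FPKM after scaling was 2.02 in pig-402, 1.95 in pig-407, 1.49 in pig-413, 1.63 in pig-525 and 2.11 in pig-577 among the lean pigs. It was 3.098 in pig-433, 2.205 in pig-473, 3.13 in pig-524, 2.79 in pig-529 and 3.22 in pig-572 among the obese pigs. Every obese pig was above every lean pig, as was the case for 2.47% of the entries tested, though obese pig-473 was close to the highest lean pig. The means were 1.84 ± 0.267 (SD, n = 5) in the lean and 2.89 ± 0.414 (SD, n = 5) in the obese pigs. The log2 difference was 0.45 (SE 0.10, limma adjusted p = 0.0981), and a two-sided exact permutation test gave p = 0.00794, the smallest that 5 pigs against 5 allow. It missed the threshold over all entries. All 10 of its captured regions were hyper-methylated. Whether both measures go together within pigs was not tested, since captured values were not assigned to pigs.

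TRAPPC9, the most abundant of the 10 by the mean of its longest entry, gave different pictures by entry. The longest entry had an FPKM of 12.1 in pig-402, 8.64 in pig-407, 6.25 in pig-413, 8.64 in pig-525 and 7.61 in pig-577 among the lean pigs, and 13.8 in pig-433, 8.31 in pig-473, 12.3 in pig-524, 11.6 in pig-529 and 13.6 in pig-572 among the obese pigs. The groups overlapped, with means of 8.64 ± 2.16 (SD, n = 5) and 11.9 ± 2.22 (SD, n = 5), a log2 difference of 0.43 (SE 0.17, limma adjusted p = 0.207). The second entry, of 1681 bases at the far end of the locus, had 2.39 ± 0.3297 in lean and 3.07 ± 0.254 in obese pigs, with every obese pig above every lean one (limma adjusted p = 0.163, exact permutation p = 0.00794). The third, of 79 bases, was listed at 0 in 10 libraries and at 1250 in obese pig-433 before scaling, so entries were not added together.

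The other tested genes did not separate the groups. INPP5A had 6.44 ± 1.95 FPKM (SD, n = 5) in the lean and 7.85 ± 0.793 in the obese pigs (limma adjusted p = 0.3298), and all 5 obese pigs were above the lean median, but lean pig-402 had the highest value of all, 9.52. Without lean pig-402 the log2 difference of INPP5A was 0.42 in place of 0.28 (limma adjusted p = 0.0792). For PARK2, whose captured regions were all hypo-methylated, the values were 5.54 ± 1.34 in lean and 6.33 ± 0.927 in obese pigs (limma adjusted p = 0.511). VPS13D had 2.03 ± 0.4664 and 2.403 ± 0.5599 (limma adjusted p = 0.519). TBC1D22A was nearly equal in both groups, at 7.13 ± 1.13 and 7.09 ± 0.727 (limma adjusted p = 0.993), although 10 of its 11 captured regions were hyper-methylated. GMDS, with the most regions, had 6.71 ± 1.17 in lean and 6.09 ± 0.723 in obese pigs (limma adjusted p = 0.591). In order of mean FPKM, TRAPPC9 was followed by INPP5A, TBC1D22A, GMDS and PARK2. The ranges over the pigs of all of these overlapped, that of the longest TRAPPC9 entry included. Then came TBCD and VPS13D, whose ranges overlapped as well, and last VAV2, ARHGAP26 and DBNDD1.

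The 3 genes under the filter were near an FPKM of 0 in these cells. VAV2 ran from 0.0394 to 0.207 FPKM in lean and from 0.0337 to 0.185 in obese pigs. ARHGAP26 ran from 0.00521 to 0.122 and from 0.0121 to 0.118. DBNDD1 was listed at 0 in 2 of the 11 libraries and did not pass 0.0841 in any pig. Its locus held other RNA, since ENSSSCG00000029761, which lies inside it, had 5.19 ± 1.32 FPKM (SD, n = 5) in the lean and 6.14 ± 0.9703 in the obese pigs (limma adjusted p = 0.439), and GAS8, under the filter, 0.734 ± 0.139 and 0.872 ± 0.1903. The groups overlapped for all 3 genes under the filter. The interval that cufflinks gave within a library was wide for them. In libraries above 0, the distance from its middle to its edge was up to 89.4% of the FPKM for VAV2. It was up to 150% for ARHGAP26 and DBNDD1, against at most 10.4% for TBCD.

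**Figure D5:**
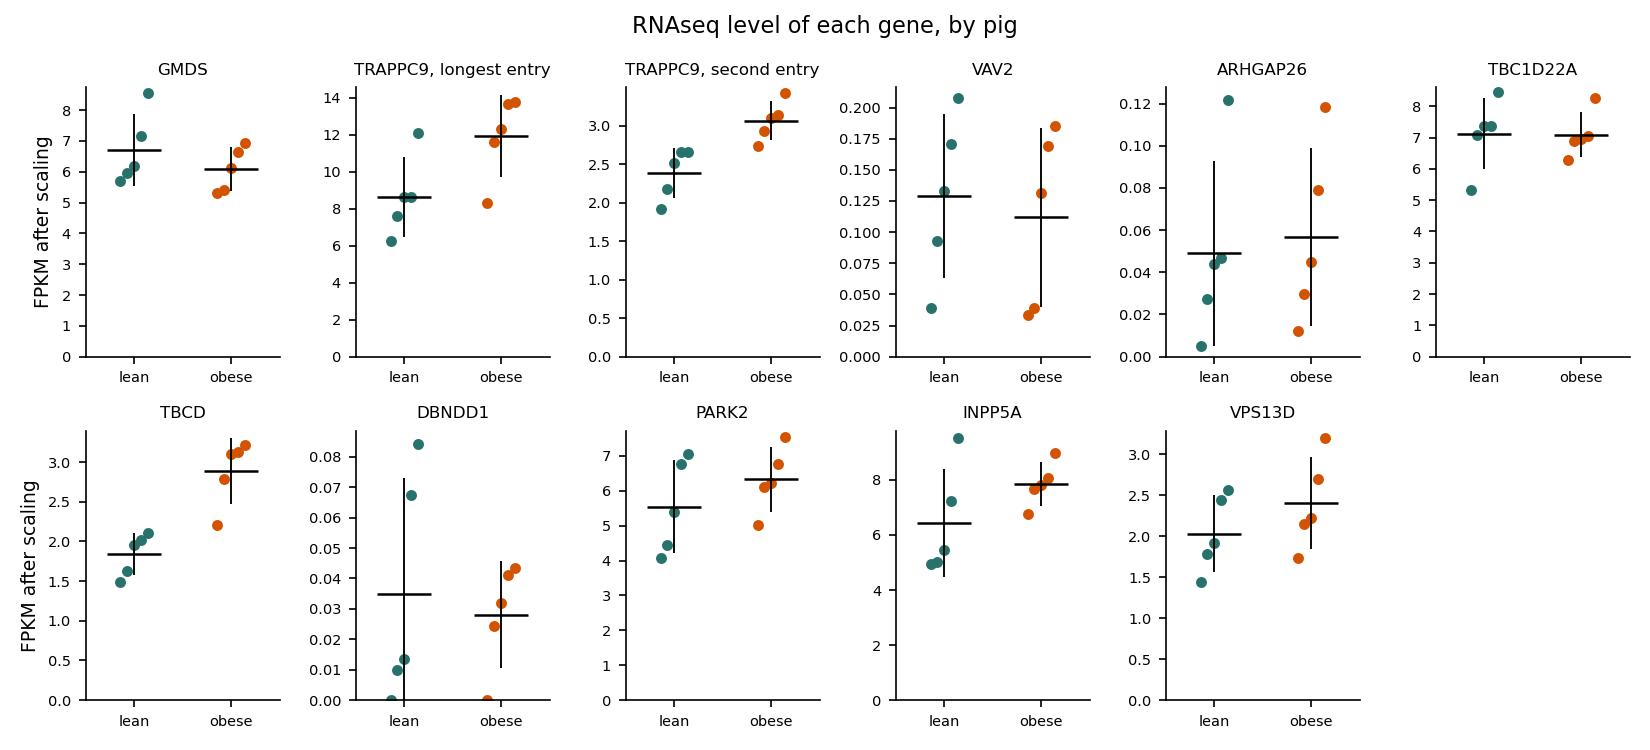
FPKM after scaling of each gene in 5 lean and 5 obese pigs (points; line, mean; bar, SD; the FPKM axes start at 0, and each panel has its own scale), with the longest and the second entry of TRAPPC9. Only TBCD and the second entry of TRAPPC9 have every obese pig above every lean pig.

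Genes that act with the 10 were examined in lists by pathway, and no gene of the lists described here was called at an adjusted p under 0.05. The median log2 difference over all entries tested was 0.01, with 5206 higher and 5057 lower in obese pigs. Genes are counted as higher or lower on this log2 scale. Of the tubulin cofactors, 4 of 6 tested were higher, all 4 with an unadjusted p under 0.05, where 11% of all entries were higher and under it (median 0.35). TBCEL, a relative of TBCE, had 3.04 ± 0.488 FPKM (SD, n = 5) in the lean and 4.55 ± 0.774 in the obese pigs (log2 difference 0.46, SE 0.12, limma adjusted p = 0.118). TBCE, which acts with TBCD on the tubulin dimer, had 10.7 ± 2.005 and 14.3 ± 3.14 (log2 difference 0.38, SE 0.16, limma adjusted p = 0.224). TBCC had 2.75 ± 0.892 and 3.63 ± 0.442 (log2 difference 0.33, SE 0.15, limma adjusted p = 0.236). The other 2 tested, TBCA and ARL2, named here after their values were seen, were lower in obese pigs. TBCA had 102 ± 17.3 and 82.4 ± 17.8 (log2 difference -0.31, SE 0.19, limma adjusted p = 0.353), and ARL2 had 12.5 ± 3.76 and 8.798 ± 1.704 (log2 difference -0.43, SE 0.21, limma adjusted p = 0.266). The list was chosen with TBCD in it, and the 4 count TBCD as 1.

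In the TRAPP list 10 of 12 tested genes were higher and 2 lower in obese pigs (median 0.22), 3 of the higher ones with an unadjusted p under 0.05, where 11% of all entries were higher and under it. These 3 were TRAPPC4, TRAPPC12 and TRAPPC9 itself, with which the list was chosen. TRAPPC4, a core subunit, had 29.8 ± 2.66 FPKM (SD, n = 5) in the lean and 37.5 ± 3.08 in the obese pigs (log2 difference 0.32, SE 0.10, limma adjusted p = 0.162). TRAPPC12 had 0.946 ± 0.196 and 1.496 ± 0.283 (log2 difference 0.36, SE 0.11, limma adjusted p = 0.143), and in both genes every obese pig was above every lean one, as in 2.47% of all entries. TRAPPC3, which was not among the 3, had 18.9 ± 5.66 and 24.1 ± 4.13 (log2 difference 0.38, SE 0.22, limma adjusted p = 0.339). On the scale of log2 of the FPKM plus 1, these sizes were similar to that of the longest TRAPPC9 entry. This scale understates the differences of low genes such as TRAPPC12, so the fold changes of the FPKM themselves were less alike.

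Among inositol phosphate phosphatases and receptors, 6 of 10 tested were higher, 2 of them with an unadjusted p under 0.05 (11% of all entries were higher and under it), and 4 lower (median 0.10). ITPR1, a receptor that releases calcium when inositol trisphosphate binds, came closest to the threshold of all listed genes, with 1.06 ± 0.387 FPKM (SD, n = 5) in the lean and 2.701 ± 0.504 in the obese pigs (log2 difference 0.85, SE 0.14, limma adjusted p = 0.0594). INPPL1, a phosphatase known for its part in insulin signalling, had 5.03 ± 0.868 and 7.804 ± 0.963 (log2 difference 0.55, SE 0.12, limma adjusted p = 0.0828). In both, every obese pig was above every lean one, as in 2.47% of all entries. OCRL had 3.18 ± 0.1603 and 2.804 ± 0.251 (log2 difference -0.14, SE 0.07, limma adjusted p = 0.295).

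In the GDP-fucose list 4 of 10 tested genes were higher and 6, GMDS among them, lower in obese pigs (median -0.04). FUCA2, a fucosidase, had 25.7 ± 7.81 FPKM (SD, n = 5) in the lean and 16.1 ± 5.71 in the obese pigs (log2 difference -0.65, SE 0.27, limma adjusted p = 0.223), and FUT8, which adds the core fucose of N-glycans, had 5.43 ± 1.08 and 4.25 ± 0.405 (log2 difference -0.28, SE 0.13, limma adjusted p = 0.243). These 2 were the genes of the list with an unadjusted p under 0.05, where 9.48% of all entries were lower and under it. Of the parkin pathway, 8 of 11 tested were higher, 1 of them (CALCOCO2) with an unadjusted p under 0.05, where 11% of all entries were higher and under it, and 3 lower (median 0.18). CALCOCO2, an autophagy receptor, had 47.5 ± 7.48 and 65.8 ± 8.41 (log2 difference 0.46, SE 0.14, limma adjusted p = 0.142), MFN2, a mitofusin that parkin ubiquitinates, 12.4 ± 3.02 and 15.9 ± 2.07 (log2 difference 0.36, SE 0.17, limma adjusted p = 0.255), and TOMM20, of the outer mitochondrial membrane, 29.7 ± 9.11 and 21.1 ± 4.98 (log2 difference -0.46, SE 0.22, limma adjusted p = 0.272).

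The remaining lists held no gene with an unadjusted p under 0.05. Of the VPS13 family 3 of 4 were higher (median 0.11), of the dysbindin family and BLOC-1 3 of 4 (median 0.09) and of the TBC1D22 family and partners 2 of 3 (median 0.00). TBC1D22A and its partners ACBD3 (15.3 ± 1.86 FPKM in lean and 15.7 ± 2.11 in obese pigs, SD, n = 5) and PI4KB (2.25 ± 0.357 and 2.24 ± 0.157) were nearly equal in the 2 groups.

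No tested marker of a cell type was called, though some means differed between the groups. The summed FPKM of the 5 adipocyte markers was 589 ± 80.6 (SD, n = 5) in the lean and 729 ± 62.1 in the obese pigs. LEP made up most of this difference. PLIN1 (286 ± 39.4 and 338 ± 61.1, limma adjusted p = 0.4402) and CEBPA (11.3 ± 3.97 and 17.9 ± 3.14, limma adjusted p = 0.161) had higher means in obese pigs as well, while LIPE (168 ± 52.7 and 165 ± 23.8) and PPARG (94.7 ± 19.3 and 90.04 ± 11.2) had slightly lower ones. Of these 5, LEP and CEBPA had an unadjusted p under 0.05. LEP, the gene of the satiety hormone leptin, had 28.8 ± 21.1 in lean and 118 ± 30.5 in obese pigs (log2 difference 2.296, SE 0.48, limma adjusted p = 0.0828), with no overlap. The 7 matched fibroblast and preadipocyte markers summed to 519 ± 184 and 444 ± 144, and all 5 that were tested had a lower mean in obese pigs, none with an unadjusted p under 0.05. The 5 endothelial markers summed to 6.68 ± 4.47 and 6.13 ± 2.02 (PECAM1 the most abundant and the only one tested, limma adjusted p = 0.863), and the 6 of smooth muscle and pericytes to 9.77 ± 2.98 and 11.6 ± 1.47 (TAGLN the most abundant). Of the 3 of these that were tested, TAGLN alone had an unadjusted p under 0.05, with 6.297 ± 1.396 and 8.44 ± 1.38 (limma adjusted p = 0.207). The 4 mesothelial markers were near 0, at 0.0854 ± 0.0448 and 0.1098 ± 0.0824. The part of cell makeup in the values of TBCD and TRAPPC9, and in the captured counts, was not tested.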

How the data were processed

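mDNAcap, RRBS and RNAseq values were taken as deposited, on build Sscrofa10.2 with Ensembl 70 names. The authors counted captured reads in 1000-base windows at 100-base steps with diffReps 1.55.4 (G-test, p cutoff 0.0001). The deposited mDNAcap values are a read count divided by 1 constant per library, and so a kind of value other than whole counts, and their group means are a normalized signal. The deposited hotspot table gives a count of regions. The deposited RRBS values are a fraction, the group mean from metilene, given here as percent, with no depth. The deposited RNAseq values are FPKM from Cufflinks 2.2.0. The authors' own comparison of FPKM was not used.

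Loci ran from the first to the last base of all entries of a gene identifier, and an overlap of 1 base counted. FPKM were divided by median-of-ratios size factors (0.697 to 1.21). In each library 8962 to 10304 entries had an FPKM of at least 1. Entries with a mean of at least 1 were fitted with limma 3.58.1 in R 4.3.3 on log2(FPKM + 1), p-values were adjusted by Benjamini-Hochberg over all 10263, and the threshold was 0.05. Of the entries, 9 with a failed estimate were left out. For single genes all 252 splits of the pigs were run in an exact permutation test, two-sided. Entries were not added together, a choice made after the values were seen. Python 3.11.15 with pandas 2.3.3, numpy 2.4.6, scipy 1.17.1 and matplotlib 3.10.9 did the rest. The scripts were tested on simulated data. The genes and lists were chosen with earlier results of these data known. Of each list, the tested genes with the 4 smallest p-values were open to naming. Some others were named as well, among them TBCA, ARL2 and LIPE. Alternatives changed the pseudocount, filter, scaling, libraries, overlap rule and RRBS table.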

Additional observations from a re-analysis of the deposited data

Results flagged for a closer look

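The entry of 79 bases of TRAPPC9 had an FPKM after scaling of 1333 in obese pig-433 and 0 in the other 4 obese pigs, so that 1 pig stood far from the rest of its group. Of 36 groups of 5 pigs looked at, this was the only such case, and chance gives about 1 in 20. The cause was not tested.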

How the results depend on the processing

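The number of entries called in RNAseq was 1, and it was 6 with no filter on low values, 0 with no scaling between libraries (limma, 1405 with an unadjusted p under 0.05), 158 with both libraries of pig-572 counted as pigs of their own and 16 with the library of pig-572(B) alone. Leaving out 1 pig at a time gave 1 to 148, the highest without lean pig-402. The cause was not tested.

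Of 159 fold changes of the genes under alternatives, 154 kept their direction and their side of the threshold. The other 5 were all of TBC1D22A, whose log2 difference of 0.00 became -0.023 with no scaling, -0.0063 with the libraries of pig-572 separate and -0.030 with the first of them alone, and ran from -0.085 to 0.059 with 1 pig left out. The adjusted p of TBCD ran from 0.0578 to 0.233.

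The 105 captured regions became 35 with group means at least 1.5-fold apart, 11 of them hyper- and 24 hypo-methylated (8 over ARHGAP26, 8 over PARK2, 6 over VPS13D and 2 over TRAPPC9). The share of hyper-methylated regions, 64.8%, became 83.1% at a mean count of at least 20 and, in an alternative chosen after seeing the data, 31.4% among these 35. These 35 rest on the authors' normalization. Scaled by the median of ratios, the second region of PARK2 alone (log2 ratio -0.72) was both hypo-methylated and at least 1.5-fold apart. The cause was not tested. The RRBS regions were 6, and 0 of them differed by 20 points or more. The table with at least 3 pigs per group held 13, of which only 1 overlapped any of the 6. Also chosen after seeing the data, taking the longest TRAPPC9 entry alone gave 100 regions, merging overlapping ones gave 102, and adding the entries of an identifier left 1 gene called and gave TRAPPC9 a log2 difference of 1.66 (limma adjusted p = 0.424, with 0.0784 to 0.424 over all alternatives).

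No paired analysis was possible because lean and obese pigs were different animals. Captured values were not assigned to pigs, so no analysis within pigs was made. The RRBS tables give no read depth for a region, so the precision of its means is not known.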
